A study of Mus musculus with 4 samples.

Results

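Tnf and 9 genes that carry or restrain NF-kB signalling were followed in mouse colon, namely Tnfaip3, Tnip1, Nfkbia, Nfkbiz, Bcl3, Nfkb1, Nfkb2, Rel and Relb. They were taken by gene symbol, and all 10 were found once each among 44788 gene rows. Colon tissue came from C57BL/6 mice in 4 groups with 1 RNA-seq library each. WT mice and mice labelled Card9-/- were collected either without treatment (labelled day 0) or on day 100 of AOM/DSS, in which 10 mg/kg of the mutagen azoxymethane (AOM) was followed by 3 cycles of 2% dextran sulfate sodium (DSS), an irritant of the colon lining given in drinking water for 7 days per cycle. Treatment and day of collection coincide, so their parts cannot be told apart. The labels state neither the sex or age of the mice nor how many animals went into a library. Libraries from AOM/DSS mice are called treated. With 1 library per group no difference below has a replicate check, no p-value was computed, and every interval is a 95% interval for counting error only.

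TNF is a cytokine released by macrophages, T cells and other cells, and its receptors switch on NF-kB, a family of paired transcription factors held in the cytoplasm by IkB proteins. When the IkB kinase marks IkB for destruction, the factors enter the nucleus and raise many inflammatory genes, among them Tnf. They also raise genes for their own inhibitors, so that the signal limits itself. In the colon this circuit works in leukocytes and in the epithelium, where it is known for its part in colitis and in tumours that follow colitis.

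The libraries held 23022885 to 27706567 counts. Card9, an adaptor of myeloid cells that leads from fungal sensors to NF-kB, was counted in all 4 libraries, at 1.75 CPM (untreated WT), 3.18 CPM (untreated, labelled knockout), 5.32 CPM (treated WT) and 7.73 CPM (treated, labelled knockout). The target goes against the label, so these samples are called libraries labelled knockout, and each direction drawn from that label rests on the label alone. Here CPM is the count scaled to library size with TMM (trimmed mean of M-values) factors, which are computed from all genes. The treated library labelled knockout differed most from the rest. Its correlation with the others across 18484 genes on the log2(CPM + 1) scale was 0.868 to 0.890, against 0.954 to 0.963 among the other 3, and its mature colonocyte markers summed to 1799 CPM against 8288 to 16819 CPM elsewhere, while pan-epithelial markers summed to 8998 against 10881 to 13169 CPM. Its goblet cell markers summed to 1962 CPM against 14638 to 17049 CPM elsewhere. Its smooth muscle markers summed to 1275 CPM against 6702 to 8891 CPM. All 7 of the latter were at least 2-fold lower than in treated WT and than in the untreated library labelled knockout. Endothelial markers, at 248 CPM, lay within the 219 to 254 CPM of the others. The part of these marker differences in the members' levels was not tested. No group has another library, so results on the treated library labelled knockout cannot be given without it. The WT pair and the untreated pair do not contain it.

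Promoter sequences from RefSeq (GRCm38.p6), the build of the deposited counts per the submitters' processing notes, were searched for the DNA motif that NF-kB binds. Windows of 300 bases, from 250 before to 50 after a gene's start, were found for 7 of the 10 genes. Nfkb1, Nfkbiz and Relb had none. Some bases before a start lay in annotated untranslated regions. These were all 250 in the Nfkb2 window from 46304487, 234 in that from 46305680 and 110 in the Tnfaip3 window from 19015361. Bcl3 and Rel had 15 and 1 such bases, and the match of Bcl3 lies after its start. The kappa B consensus, searched on both strands, was present in 6 of the 7 genes. It occurs in 9.55% of 26994 genes and 8.46% of 32817 windows. A stricter form (GGGA, any base, then TTTCC), whose matches are all matches of the consensus too, was found in Nfkbia and Nfkb2, and in 0.467% of all genes. Overlapping matches were counted separately, and the strict match of Nfkb2 lies in windows of different starts of that gene. The matched stretches below show the motif in capitals with 10 bases on each side, read 5′ to 3′ on the gene's own strand. They are shown because these genes are the inhibitors and subunits whose levels follow, and a match is a description of letters and not of a bound site.
Nfkbia (chr12:55492657-55492686, minus strand): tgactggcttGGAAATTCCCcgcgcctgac
Nfkb2 (chr19:46305695-46305724, plus strand): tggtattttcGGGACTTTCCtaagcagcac
Nfkb2 (chr19:46304688-46304717, plus strand): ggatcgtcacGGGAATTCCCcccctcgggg
Nfkb2 (chr19:46304716-46304745, plus strand): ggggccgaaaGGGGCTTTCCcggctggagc
Nfkb2 (chr19:46305449-46305478, plus strand): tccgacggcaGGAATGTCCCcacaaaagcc
Rel (chr11:23771042-23771071, minus strand): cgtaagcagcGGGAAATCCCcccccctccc
Tnfaip3 (chr10:19015403-19015432, minus strand): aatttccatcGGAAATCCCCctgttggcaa
Tnfaip3 (chr10:19015516-19015545, minus strand): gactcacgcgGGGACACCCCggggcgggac
Tnip1 (chr11:54962978-54963007, minus strand): tccatcatggGGGAATTCCCctcctgcctc
Bcl3 (chr7:19822734-19822763, minus strand): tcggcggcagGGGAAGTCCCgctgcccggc

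Further matches in Nfkb2, Rel and Tnip1 overlap those shown, shifted by 1 base. The whole 250 bases before the start are given for Nfkbia and Tnip1, whose levels differed in opposite directions between the AOM/DSS and untreated libraries labelled knockout, and for Tnf, the member with the largest fold in 3 of the 4 pairs (not the untreated pair), whose window held no match. That says only that these letters are not in this window. Capitals mark matches of the consensus, merged where they overlap.
Nfkbia (chr12:55492648-55492897, minus strand): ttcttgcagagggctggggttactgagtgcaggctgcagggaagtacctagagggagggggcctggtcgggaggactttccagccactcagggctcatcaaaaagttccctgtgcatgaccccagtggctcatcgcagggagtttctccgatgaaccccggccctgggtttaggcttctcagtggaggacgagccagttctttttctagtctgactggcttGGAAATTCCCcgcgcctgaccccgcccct
Tnip1 (chr11:54962941-54963190, minus strand): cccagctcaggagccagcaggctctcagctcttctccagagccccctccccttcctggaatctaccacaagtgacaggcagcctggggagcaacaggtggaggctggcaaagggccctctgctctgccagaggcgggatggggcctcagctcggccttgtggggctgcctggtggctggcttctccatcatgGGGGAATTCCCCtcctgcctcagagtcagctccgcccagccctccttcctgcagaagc
Tnf (chr17:35202008-35202257, minus strand): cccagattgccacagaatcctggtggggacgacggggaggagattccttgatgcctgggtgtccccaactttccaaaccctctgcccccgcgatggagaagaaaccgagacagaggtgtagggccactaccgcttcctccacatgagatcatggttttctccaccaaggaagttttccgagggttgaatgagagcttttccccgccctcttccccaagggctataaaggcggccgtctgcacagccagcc

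Tnf, the ligand, lies on chromosome 17 from 35199381 to 35202007 (GRCm38, GENCODE M21). It had 21 counts (0.833 CPM) in untreated WT, 45 counts (2.07 CPM) in the untreated library labelled knockout, 133 counts (6.10 CPM) in treated WT and 720 counts (22.7 CPM) in the treated library labelled knockout. Both AOM/DSS libraries lay above both untreated ones, and within each treatment the library labelled knockout was the higher. Tnf was 7.32-fold higher after AOM/DSS in WT (4.60 to 12.2) and 11.0-fold higher in the libraries labelled knockout (8.11 to 15.2). The label over WT gave 3.73-fold after AOM/DSS (3.09 to 4.52) and 2.49-fold without treatment (1.45 to 4.39), the latter on 45 and 21 counts. Each step in the order of the 4 libraries was larger than counting error, and the highest stood 27.3-fold above the lowest (17.7 to 44.3).

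**Figure D1:**
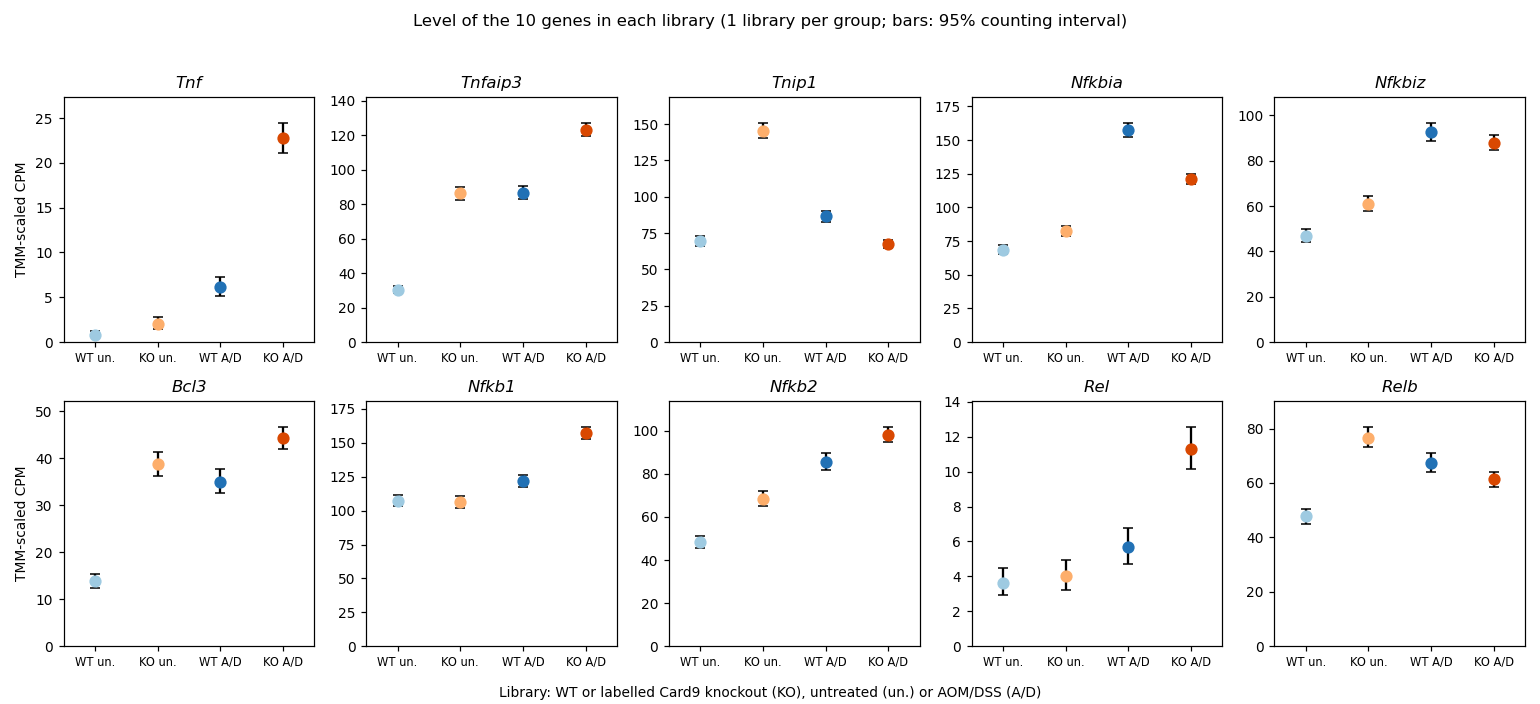
TMM-scaled CPM (vertical axes, from 0) of the 10 genes in the 4 libraries (horizontal axes), 1 point per library with its 95% counting interval. Tnf goes from 0.833 to 22.7 CPM, Tnfaip3 and Bcl3 are low in untreated WT only, and Tnip1 is highest in the untreated library labelled knockout at 146 CPM.

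The cytoplasmic and enzyme inhibitors come next. Nfkbia encodes IkB alpha, the inhibitor that is destroyed on activation and made again as an NF-kB target (chromosome 12, 55489410 to 55492647). Its level was 68.6 CPM in untreated WT and 82.2 CPM in the untreated library labelled knockout, 157 CPM in treated WT and 121 CPM in the treated library labelled knockout. Both AOM/DSS libraries were above both untreated ones. The fold after AOM/DSS was 2.29 in WT (2.16 to 2.43) and 1.47 in the libraries labelled knockout (1.39 to 1.56). The treated library labelled knockout was 1.30-fold below its WT counterpart (1.24 to 1.36). Under library totals that last log2 ratio was -0.10 and not -0.37.

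Tnfaip3 encodes A20, a ubiquitin-editing enzyme that shuts off signalling below TNF receptors (chromosome 10, 19000910 to 19015657). It stood at 30.3 CPM (764 counts) in untreated WT, 86.2 CPM (1873 counts) in the untreated library labelled knockout, 86.7 CPM (1890 counts) in treated WT and 123 CPM (3900 counts) in the treated library labelled knockout. Untreated WT was low and the other 3 were not. The untreated library labelled knockout and treated WT differed by less than counting error (interval of the fold 0.942 to 1.07). Tnfaip3 was therefore 2.86-fold higher after AOM/DSS in WT (2.63 to 3.11), 2.84-fold higher by label without treatment (2.61 to 3.10), and 1.43-fold higher after AOM/DSS in the libraries labelled knockout (1.35 to 1.51). The WT pair and the untreated pair share the untreated WT library, so their similar folds are not independent.

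Tnip1 encodes ABIN-1, which binds A20 and ubiquitin chains and helps to restrain the same signal (chromosome 11, 54910785 to 54962917). It was at 69.7 CPM in untreated WT, 146 CPM in the untreated library labelled knockout, 86.5 CPM in treated WT and 67.5 CPM in the treated library labelled knockout. The untreated library labelled knockout was the high value. Under the TMM scaling, untreated WT and the treated library labelled knockout differed by less than counting error (1.03-fold, 0.968 to 1.10). AOM/DSS over untreated was 1.24-fold higher in WT (1.16 to 1.33) and 2.16-fold lower in the libraries labelled knockout (2.04 to 2.28). Scaled by library totals alone, the latter log2 ratio was -0.80 and not -1.10, which is less than 2-fold.

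Because Tnip1 and Tnfaip3 products act together, their reads were also set against each other within a library, which needs no scaling between libraries. For every 100 Tnfaip3 reads there were 230 Tnip1 reads in untreated WT (211 to 251), 169 in the untreated library labelled knockout (159 to 179), 99.8 in treated WT (93.6 to 106) and 54.9 in the treated library labelled knockout (52.0 to 57.9). The ratio was lower in the AOM/DSS library of both pairs. Tnf reads per 100 Tnfaip3 reads went the other way, at 2.75 (1.69 to 4.23) and 2.40 (1.75 to 3.23) in the untreated WT and labelled knockout libraries, and 7.04 and 18.5 after AOM/DSS. These ratios compare reads and not molecules, since the genes differ in length, but that difference is the same in each library.

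Nfkbiz and Bcl3 encode atypical IkB proteins that work in the nucleus and modify which NF-kB targets are read. Nfkbiz (chromosome 16, 55811375 to 55838899) stood at 46.9 CPM and 60.9 CPM in the untreated WT and labelled knockout libraries, and at 92.5 and 87.9 CPM after AOM/DSS in the same order. It was 1.97-fold higher after AOM/DSS in WT (1.83 to 2.12) and 1.44-fold higher in the libraries labelled knockout (1.35 to 1.54). The AOM/DSS libraries differed by less than counting error, and the sign of that small difference turned under library totals (log2 ratio -0.07, against 0.20).

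Bcl3 (chromosome 7, 19808462 to 19822770), whose product pairs with the processed subunits made from Nfkb1 and Nfkb2, followed the order of Tnfaip3 only in part. It had 13.9 CPM (350 counts) in untreated WT, 38.7 CPM (841 counts) in the untreated library labelled knockout, 35.0 CPM (764 counts) in treated WT and 44.2 CPM (1400 counts) in the treated library labelled knockout. As for Tnfaip3, untreated WT was the low value, and the other 3 lay within a narrow range. The folds were 2.52 after AOM/DSS in WT (2.22 to 2.87), 2.79 by label without treatment (2.46 to 3.17) and 1.14 after AOM/DSS in the libraries labelled knockout (1.05 to 1.24).

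The DNA-binding subunits follow. Nfkb1, the precursor of the p50 subunit (chromosome 3, 135584655 to 135691547), was at 107 CPM in untreated WT, 106 CPM in the untreated library labelled knockout, 122 CPM in treated WT and 157 CPM in the treated library labelled knockout. The untreated libraries were equal within counting error under the TMM scaling (0.989-fold, 0.935 to 1.05). Scaled by library totals, their log2 ratio was -0.11 and not -0.02, outside that interval. The folds after AOM/DSS were 1.14 in WT (1.08 to 1.20) and 1.48 in the libraries labelled knockout (1.41 to 1.55). Nfkb2, the precursor of the p52 subunit of the alternative pathway (chromosome 19, 46304320 to 46312385), stood at 48.3 and 68.5 CPM in the untreated WT and labelled knockout libraries and at 85.7 and 98.1 CPM after AOM/DSS, folds of 1.77 (1.65 to 1.91) and 1.43 (1.34 to 1.52). It shares 299 exon bases with Psd and 531 with AC114539.1, both on the other strand, and Bcl3 shares 161 with the antisense gene Gm16175. The strand handling of the counts is not stated, so reads of these genes and their partners cannot be told apart. Psd itself had 781, 884, 429 and 86 counts in the library order used above for Tnf.

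Relb, the usual partner of p52 (chromosome 7, 19606217 to 19629438), had 47.8 CPM in untreated WT, 76.7 CPM in the untreated library labelled knockout, 67.4 CPM in treated WT and 61.3 CPM in the treated library labelled knockout. After AOM/DSS it was 1.41-fold higher in WT (1.31 to 1.53) and 1.25-fold lower in the libraries labelled knockout (1.17 to 1.34), and it was highest in the untreated library labelled knockout, as was Tnip1. Under library totals the log2 ratio of the labelled knockout pair was -0.03 and not -0.32. Between the AOM/DSS libraries its log2 ratio was -0.14, which turned to 0.13 under library totals. Rel encodes c-Rel, a subunit known best from lymphocytes and macrophages (chromosome 11, 23736847 to 23770970). It had 92 counts (3.65 CPM) in untreated WT, 87 counts (4.005 CPM) in the untreated library labelled knockout, 124 counts (5.69 CPM) in treated WT and 358 counts (11.3 CPM) in the treated library labelled knockout. The last was high and the untreated libraries could not be told apart (1.10-fold, 0.809 to 1.49). The folds were 1.56 in the WT pair (1.18 to 2.06) and 2.82 in the labelled knockout pair (2.23 to 3.61).

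To count members, a size rule was applied to all genes: at least 2-fold on the log2(CPM + 1) scale, with 50 or more counts in whichever library was higher. In the WT pair 4 of 10 members were higher (Tnf, Tnfaip3, Nfkbia and Bcl3) and 0 lower, against 4.08% of 15356 genes higher and 3.88% lower (7.96% in either direction), and the median log2 ratio of the members was 0.89 against 0.01 for all genes. Nfkbiz lay just inside 2-fold. All 10 members had a ratio above 0 on the log2 scale, as did 51.2% of 18484 genes. In the labelled knockout pair Tnf and Rel were higher and Tnip1 lower, where 14.1% of 15900 genes were higher and 15.9% lower (30.0% in either direction), so a count of 2 higher and 1 lower is near the background. The median of the members was 0.52 and that of all genes -0.03.

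**Figure D2:**
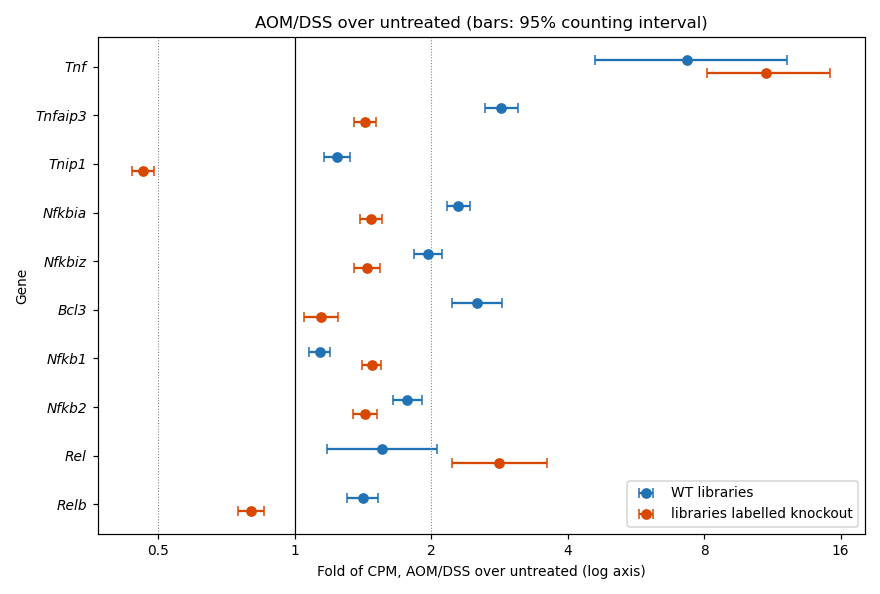
Fold of CPM, AOM/DSS over untreated (horizontal log axis), for each gene in the WT libraries and in the libraries labelled knockout, with 95% counting intervals and dotted lines at 0.5 and 2. Tnf is farthest to the right in both, at 7.32 and 11.0, and Tnip1 and Relb lie on opposite sides of 1.

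The AOM/DSS ratios of both genotype labels were then compared by subtracting the log2 ratio of the WT pair from that of the labelled knockout pair. The difference was -1.41 for Tnip1 and -1.09 for Bcl3, the members past 1 in size, and -0.98 for Tnfaip3, -0.81 for Relb and -0.63 for Nfkbia. Bcl3 was no longer past 1 under library totals (-0.73), a pseudocount of 5 CPM (-0.91) or, narrowly, DESeq2 size factors. The difference was just under the limit for Tnf (1.00 after rounding), 0.77 for Rel and 0.38 for Nfkb1. Across 16383 genes 14.2% were above 1 and 16.3% below -1 (30.5% in either direction), so 0 members above and 2 of 10 below are near the background. In all, 7 of the 10 members were below 0, namely Tnfaip3, Tnip1, Nfkbia, Nfkbiz, Bcl3, Relb and Nfkb2 (-0.30, which turned to 0.06 under library totals), against 51.1% of all genes.

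Between the untreated libraries, Tnfaip3, Tnip1 and Bcl3 were at least 2-fold higher in the library labelled knockout and 0 members were lower, against 4.46% and 3.37% of 15352 genes (7.83% in either direction). Under library totals Tnip1 fell short of 2-fold there, at a log2 ratio of 0.96. The median of the members was 0.58, and that of all genes lay close to 0. Markers of other cells differed between these libraries too. All 6 adipocyte markers were at least 2-fold lower in the library labelled knockout, with a sum of 22.4 CPM against 410 CPM in WT, and mature colonocyte markers summed to 8288 against 16819 CPM, with 3 of 10 higher and 3 lower. Their part in the members' levels was not tested. Tnf did not reach the minimum of 50 counts there. After AOM/DSS only Tnf passed, as higher, where 11.9% of 15779 genes were higher and 12.4% lower (24.2% in either direction), so that count too is near the background, and the members' median was 0.26 against -0.02. Rel, at 1.99-fold (1.62 to 2.46), lay just inside 2-fold. Tnip1 and Nfkbia, higher by label without treatment, were lower by label after AOM/DSS, at 1.28-fold (1.20 to 1.36) and 1.30-fold (1.24 to 1.36). Relb went from 1.61-fold higher (1.49 to 1.73) to 1.10-fold lower (1.03 to 1.18), a sign that library totals turned. Under that scaling the log2 ratios after AOM/DSS shrank to -0.08 for Tnip1 and -0.10 for Nfkbia.

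**Figure D3:**
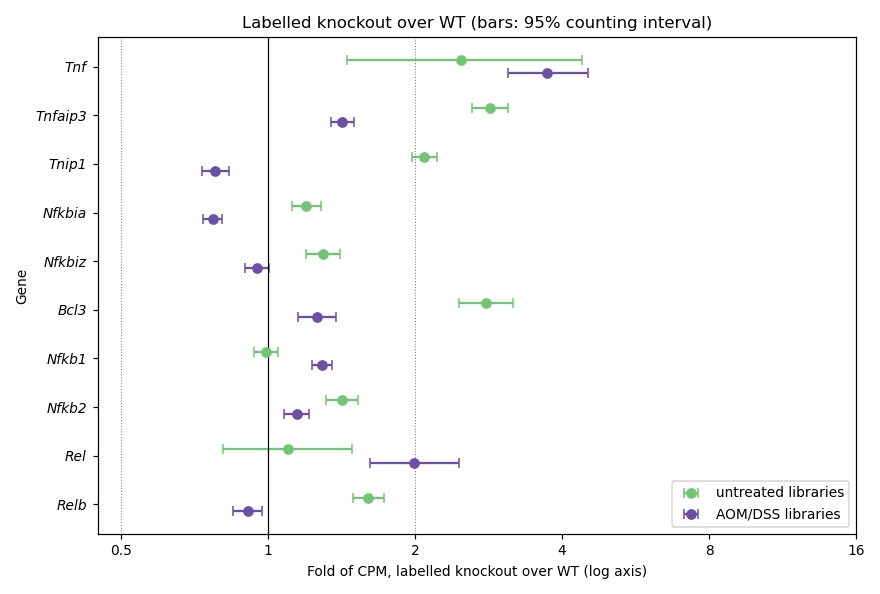
Fold of CPM, labelled knockout over WT (horizontal log axis), for each gene in the untreated and in the AOM/DSS libraries, with 95% counting intervals and dotted lines at 0.5 and 2. Tnfaip3, Tnip1 and Bcl3 lie past 2 without treatment at 2.84, 2.09 and 2.79, and Tnf alone lies past 2 after AOM/DSS at 3.73.

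Levels can be compared between genes only per length, here CPM per kilobase of the exons in GENCODE M21. The exons of all transcripts of a gene were merged, so this length can exceed that of any single transcript. Nfkbia was the highest member in every library, with 42.6 CPM per kilobase in untreated WT and, as its peak, 97.7 in treated WT. Rel was the lowest in every library, at 0.489 to 1.51 CPM per kilobase. Tnf stood next to last in 3 libraries, at 0.508 CPM per kilobase in untreated WT, 1.26 in the untreated library labelled knockout and 3.72 in treated WT. It reached 13.9 in the treated library labelled knockout, where Nfkb1 was at 13.0. The merged exons held 1639 bases for Tnf and 12061 for Nfkb1, so the order of these genes there rests on the length used. Within the reads of the 10 genes, the share of Tnf was 0.191% of 11023 reads in untreated WT (exact binomial interval 0.118 to 0.291) and 2.86% of 25165 reads in the treated library labelled knockout (2.66 to 3.07). Nfkb1 took the largest share in untreated WT (24.5%), Tnip1 in the untreated library labelled knockout (21.7%), Nfkbia in treated WT (21.1%) and Nfkb1 in the treated library labelled knockout (19.8%).

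**Figure D4:**
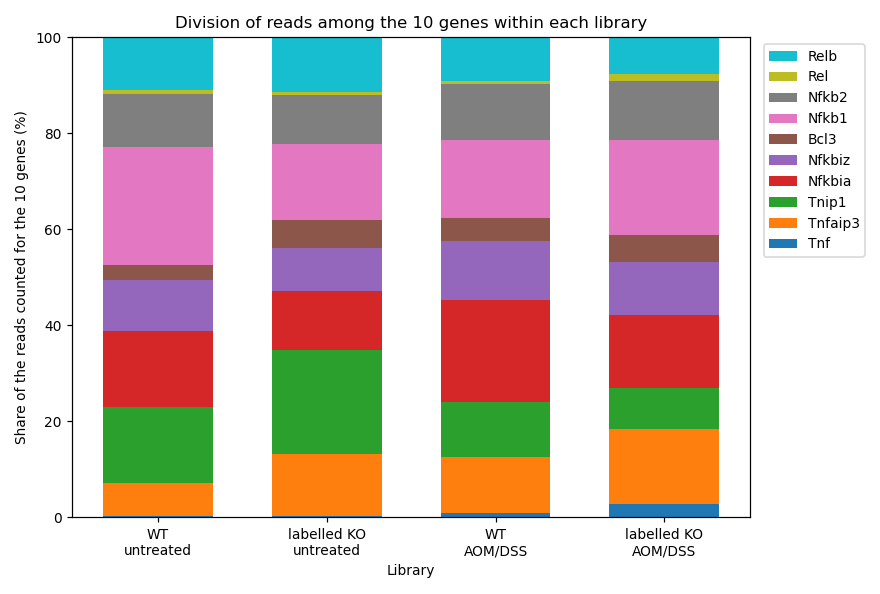
Share (%) of the reads of the 10 genes that fell to each gene (vertical axis, stacked to 100) in the 4 libraries. Tnip1 takes 21.7% in the untreated library labelled knockout and 8.50% in the AOM/DSS library with that label, and Nfkbia 21.1% in treated WT.

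Other genes of the pathway were followed in lists. Among 24 subunits, kinases and adaptors, such as Rela, Ikbkb, Ikbkg, Ripk1, Traf6 and Malt1, 0 passed the size rule in any of the 4 pairs, with medians between 0.02 and 0.24 on the log2 scale. Over all genes 7.96% passed in either direction in the WT pair and 7.83% in the untreated pair. The share was 30.0% in the labelled knockout pair and 24.2% in the AOM/DSS pair. Irak4, a kinase below Toll-like receptors, came nearest, with a CPM ratio 2.04-fold lower in the labelled knockout pair and -0.99 on the log2(CPM + 1) scale of the rule. Rela, the main activating subunit, stood at 50.7 and 74.6 CPM in the untreated WT and labelled knockout libraries and at 69.2 and 87.3 CPM after AOM/DSS. Of 22 other negative feedback genes, 6 were higher and 0 lower in the WT pair (median 0.32), and 4 higher and 1 lower in the labelled knockout pair (median 0.16). Set against 4.08% and 3.88% of all genes in the WT pair and 14.1% and 15.9% in the labelled knockout pair, the latter counts are near the background. Tnip3, a relative of Tnip1, was 8.34-fold higher after AOM/DSS in WT (6.41 to 11.0) and 12.7-fold higher by label without treatment (9.80 to 16.6), at 2.54 CPM in untreated WT and 32.2 CPM in its labelled counterpart. It was low in untreated WT, as were Tnfaip3 and Bcl3. Nfkbie and Nfkbid, further IkB genes, were higher in both pairs, Nfkbie by 2.73-fold and 3.35-fold and Nfkbid by 3.94-fold and 2.37-fold in the WT and labelled knockout pairs. Socs3, an inhibitor of cytokine receptor signalling, was 6.60-fold and 9.58-fold higher in the same order, and Pdcd4, a translation inhibitor, was 3.92-fold lower in the labelled knockout pair.

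Of 26 TNF superfamily ligands and receptors, 18 met the count minimum in the WT pair, with 4 higher and 0 lower (median 0.52). In the labelled knockout pair 20 met it, with 8 higher and 2 lower (median 0.57). Over all genes 4.08% were higher and 3.88% lower in the WT pair, and 14.1% and 15.9% in the labelled knockout pair. The 2 lower genes are thus not above the background. The TNF receptor gene Tnfrsf1a was at 68.4 and 82.5 CPM in the untreated WT and labelled knockout libraries and at 109 and 100 CPM after AOM/DSS, and Tnfrsf1b, the receptor found mainly on immune cells, at 27.8 and 35.0 CPM against 57.1 and 104 CPM. Tnfrsf1b was 2.05-fold higher after AOM/DSS in WT (1.87 to 2.25) and 2.98-fold in the libraries labelled knockout (2.76 to 3.23), so it was the receptor of the pair past the size rule. Adam17, which sheds TNF from the cell surface, was at 51.4 to 52.0 CPM in 3 libraries and at 88.1 CPM in the treated library labelled knockout. Ltb, a lymphotoxin subunit, was 3.55-fold higher in the WT pair and Tnfrsf9, a costimulatory receptor, 9.76-fold (4.88 to 22.2) and 16.6-fold (9.73 to 30.6) higher in the WT and labelled knockout pairs. Tnfrsf11b, the decoy receptor osteoprotegerin, stood at 4.19 to 5.87 CPM in 3 libraries and at 126 CPM in the treated library labelled knockout.

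Inflammatory genes that NF-kB is known to raise made a further list. Of 28 listed, 24 met the count minimum in the WT pair, with 19 higher and 0 lower (median 2.10). In the labelled knockout pair 23 met it, with 18 higher and 0 lower (median 2.43). Over all genes 4.08% were higher and 3.88% lower in the WT pair, and 14.1% and 15.9% in the labelled knockout pair. Between the AOM/DSS libraries the listed genes went both ways, with 10 higher and 8 lower by label among 25 at the minimum. Of all genes 11.9% were higher and 12.4% lower there. Il1b, for example, stood at 156 CPM in treated WT and 53.3 CPM in the treated library labelled knockout, Cxcl2 at 49.5 and 20.1 CPM, and Nos2 at 42.0 and 528 CPM. Tnf was on the side of Nos2 and Cxcl5, the latter at 8.44 and 133 CPM, and not on that of Il1b and Cxcl2.

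Genes nearest to Tnf in pattern were sought by the Euclidean distance between centred log2(CPM + 1) values over the 4 libraries, among 13715 protein-coding genes with at least 50 counts in a library. The 5 nearest were Syt8 (distance 0.331), Marcksl1 (0.360), Ifitm1 (0.397), Slfn1 (0.417) and Tnfrsf9 (0.453). Nearest to the mean pattern of the 10 genes were Dennd1c (0.0753), Net1 (0.0773), Sbno2 (0.118), Bin2 (0.134) and 4933411K16Rik (0.158). With 4 points per gene, such nearness is a description of these libraries.

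Marker lists of immune cells differed between the libraries in several orders, and some of these orders were those of members. The 8 pan-leukocyte markers summed to 185 CPM in untreated WT, 307 CPM in the untreated library labelled knockout, 402 CPM in treated WT and 700 CPM in the treated library labelled knockout, the same order as Tnf and Nfkb2. Tnfaip3 and Rel had this order too, each with a pair of neighbours that counting error does not separate. Tnip1 had another order and was highest in the untreated library labelled knockout. These markers were lowest in untreated WT and highest in the treated library labelled knockout. Between those libraries Tnip1 differed by less than counting error under the TMM scaling (1.03-fold, 0.968 to 1.10). Other scaling was not applied to this contrast. In tissue, fewer cells of a type and less RNA per cell cannot be told apart. Of these 8 markers, 5 were at least 2-fold higher in the WT pair, 3 in the labelled knockout pair, 2 in the untreated pair and 3 in the AOM/DSS pair, and 0 were lower. The 15 macrophage and monocyte markers summed to 621, 740, 679 and 1971 CPM in the library order used above for Tnf, with 1 higher and 2 lower in the WT pair and 11 higher and 1 lower in the labelled knockout pair. The 11 neutrophil markers summed to 5.28, 62.2, 438 and 335 CPM in that order, with 10 and 9 higher in the WT and labelled knockout pairs. Of the 62.2 CPM, Ly6g alone made 54.7 CPM, Ngp was at 0 in both untreated libraries and Camp at 0 in the untreated library labelled knockout. B and plasma cell markers, 11 in all, were higher in 9 cases in both the WT pair and the untreated pair and lower in 10 in the labelled knockout pair. In the AOM/DSS pair 9 of them were lower by label and 0 higher. Of the macrophage and monocyte markers 12 were higher by label there and 1 lower, and of the neutrophil markers 1 was higher and 1 lower. Over all genes 4.08% were higher and 3.88% lower in the WT pair, and 14.1% and 15.9% in the labelled knockout pair. These shares were 4.46% and 3.37% in the untreated pair, and 11.9% and 12.4% in the AOM/DSS pair. The part of these cell types in the levels of the 10 genes was not tested.

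**Figure D5:**
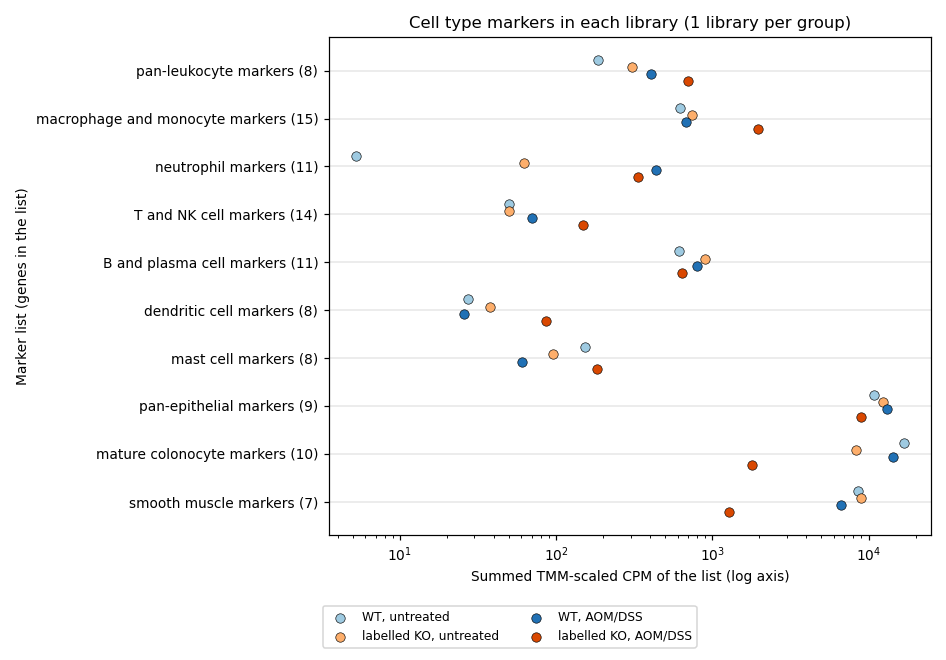
Summed TMM-scaled CPM (horizontal log axis) of cell type marker lists, with the number of genes in brackets, and 1 point per library. Pan-leukocyte markers go from 185 to 700 CPM in the order of Tnf, and mature colonocyte markers are lowest, at 1799 CPM, in the treated library labelled knockout.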

How the data were processed

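The authors deposited raw whole-number counts, 1 value per gene symbol and library, and the 4 colon libraries were matched to groups by their titles. RNA was extracted with Trizol and sequenced with an Ion Proton kit, per the labels' protocols. Per the submitters' processing notes, GRCm38 (mm10) was the build; aligner, counter, annotation and strand handling: not given in the sources used here.

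CPM were computed with TMM factors between 0.931 and 1.14 (edgeR 4.0.16, R 4.3.3). Printed folds are ratios of CPM without a pseudocount, with exact Clopper-Pearson intervals conditional on the summed counts (SciPy 1.17.1). The labels name no molecular identifiers, so intervals cover counting error only. The size rule (2-fold, 50 counts, pseudocount 1 CPM) was applied to all genes. The code was tested on simulated data with larger changes in better counted genes and no spread between animals. That test checks the code and not whether the genes past the rule would hold in further mice. With 1 library per group no test was made. The members, lists and tests were chosen with earlier results of these data known. Named genes are the members, Card9, examples among the 4 largest ratios of each list in the WT pair and in the labelled knockout pair, and the 5 nearest patterns; other list genes were named after their values were seen. Alternatives were other scaling (DESeq2 1.42.0 size factors, upper quartile, library totals, genes above 1% of a library left out), pseudocounts of 0.5 and 5 CPM, a minimum of 200 counts or none, and thinning to the smallest library.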

Additional observations from a re-analysis of the deposited data

Results flagged for a closer look

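Tnip1 and Relb differed in opposite directions after AOM/DSS under the genotype labels, each beyond counting error under the TMM scaling. For Tnip1 the log2 ratio was 0.31 in the WT pair and -1.10 in the labelled knockout pair, a difference of -1.41. For Relb it was 0.49 and -0.32, a difference of -0.81. Under library totals the labelled knockout pair gave -0.80 for Tnip1 and -0.03 for Relb. With 1 library per group these differences were not tested, and both genes were highest in the untreated library labelled knockout.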

How the results depend on the processing

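Single-member log2 ratios and their differences kept their sign in 443 of 446 alternative values. The 3 others were all under library totals. They were Nfkbiz (0.20) and Relb (0.13) between the AOM/DSS libraries, and the difference of the AOM/DSS ratios of Nfkb2 (0.06, against -0.30). Part of the agreement in sign was fixed in advance, because the count minimum alters no ratio and a pseudocount cannot turn the sign of a single ratio. In size, 34 of the 446 values moved by more than the counting error of the main value. In the labelled knockout pair, for example, library totals moved Tnfaip3 from 0.51 to 0.80, Bcl3 from 0.19 to 0.48 and Nfkb1 from 0.56 to 0.85. Library totals left 0 members lower in the labelled knockout pair (1 before), 2 higher between the AOM/DSS libraries (1 before), and 2 above and 1 below for the difference of the ratios (0 and 2 before). That scaling moved the median log2 ratio of all genes in the labelled knockout pair from -0.03 to 0.22 and the share of higher among genes past 2-fold from 47.0% to 64.1%, and from 48.9% to 64.2% between the AOM/DSS libraries, and from 46.6% to 66.1% for the difference of the ratios, where 3523 genes were above 1 and not 2327. It also left 2 members higher in the untreated pair (3 before), without Tnip1. DESeq2 size factors gave 1 member above (Tnf) and 1 below (Tnip1) for the difference, and Bcl3 was lost below 1 there as under library totals and a pseudocount of 5 CPM. A pseudocount of 5 CPM, which shrinks ratios of low genes, took Tnf just under 2-fold in the WT pair (log2 ratio 0.93), left 1 member higher in the labelled knockout pair (Tnf) and gave 1 above and 1 below for the difference. It also lowered the counts over all genes by over 1.5 times, to 314 higher and 268 lower in the WT pair (627 and 596), 1408 and 1587 in the labelled knockout pair (2245 and 2532), 372 and 248 in the untreated pair (685 and 517), 1132 and 1235 in the AOM/DSS pair (1870 and 1952) and 1478 and 1728 for the difference (2327 and 2663). A minimum of 200 counts left 409 higher in the WT pair. The stricter motif was found in 2 members, not 6. The other 81 counts of members or motif matches stayed within 1.5 times. No paired analysis was possible because each group has 1 library and the labels give no replicate numbers. Depth limits Tnf without treatment most, at 21 and 45 counts.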

Other observations

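Set against leukocyte markers, the members split. For every 1000 reads of the 8 pan-leukocyte markers there were 4.50 Tnf reads in untreated WT (2.78 to 6.88), 6.74 in the untreated library labelled knockout (4.91 to 9.02), 15.2 in treated WT (12.7 to 18.0) and 32.5 in the treated library labelled knockout (30.1 to 35.0), so Tnf reads were more frequent relative to these markers in the AOM/DSS library of both pairs. Tnfaip3 gave 164, 280, 215 and 176 in the same order and Bcl3 75.0, 126, 87.0 and 63.2, and both were highest in the untreated library labelled knockout. Tnip1 gave 376, 474, 215 and 96.6, lower after AOM/DSS under both labels on this measure. So were Nfkb1 (580, 345, 303 and 224), Nfkb2 (261, 223, 213 and 140) and Relb (258, 249, 168 and 87.7), although Nfkb1 and Nfkb2 rose in CPM. Nfkbia gave 370, 267, 391 and 173 and Nfkbiz 253, 198, 230 and 126, both lower after AOM/DSS in the libraries labelled knockout. Rel gave 19.7, 13.0, 14.1 and 16.2. Set against the 15 macrophage and monocyte markers, the picture differed. Per 1000 of their reads Tnf gave 1.34, 2.80, 8.98 and 11.5, a smaller step between the AOM/DSS libraries, and Tnfaip3 48.8, 117, 128 and 62.5, with its peak in treated WT. Tnip1 gave 112, 197, 127 and 34.3, higher after AOM/DSS in WT and lower in the libraries labelled knockout. These ratios need no scaling between libraries, and they were chosen after other results were seen.

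Tnfrsf13c, the receptor of B cells for the survival factor BAFF, stood at 0.555 CPM in untreated WT, 6.08 CPM in the untreated library labelled knockout, 8.53 CPM in treated WT and 1.04 CPM in the treated library labelled knockout. Like Tnfaip3 and Bcl3 it was low in untreated WT, and unlike them it was low again in the treated library labelled knockout. B and plasma cell markers had a median log2 ratio of 2.78 in the WT pair and -1.70 in the labelled knockout pair. The list of immediate early and heat shock genes had medians of 0.53 and 0.40 in the same pairs. In the WT pair 4 of 13 were higher, against 4.08% of all genes. In the labelled knockout pair 2 were higher and 2 lower, near the background of 14.1% and 15.9% of all genes. The part of these lists in the levels of the 10 genes was not tested.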
